A study of Homo sapiens with 4 samples.

Results

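Steroid receptor coactivators and corepressors are the proteins that a hormone-bound receptor recruits to turn DNA binding into a change in transcription. The 9 genes described here are *NCOA1*, *NCOA2*, *NCOA3*, *EP300*, *CREBBP*, *MED1*, *PELP1*, *NCOR1* and *NRIP1*. They were picked by symbol, and all 9 were found among the 23287 gene symbols of the RNA-seq files, with 17 of the 41138 transcripts. The RNA-seq experiment compared T47D cells, a PR-positive human breast cancer cell line, after 3 h with 10 nM of the synthetic progestin R5020 or with its vehicle ethanol (EtOH), and the ChIP-seq experiment mapped PR binding sites in T47D cells after 1 h with 10 nM R5020. All cells were kept before treatment in medium with charcoal-stripped serum, which removes steroids, and those for ChIP-seq were kept in it for longer than those for RNA-seq. There was 1 library per RNA condition and 1 PR ChIP-seq library. The differences thus could not be set against a spread between cultures and were not tested. Bulk RNA cannot tell a change in the share of cells expressing a gene from a change in RNA per cell.

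The members act at steroid receptors in different ways. The p160 coactivators NCOA1 (SRC-1), NCOA2 (GRIP1, TIF2) and NCOA3 (AIB1) dock on the hormone-bound ligand-binding domain through LXXLL motifs and bring in the histone acetyltransferases p300 (*EP300*) and CBP (*CREBBP*), while MED1 links the receptor to the Mediator complex and RNA polymerase II. PELP1 is a scaffold that ties steroid receptors to kinases and chromatin factors. NCOR1 holds the deacetylase HDAC3 at receptors that carry no agonist, and NRIP1 (RIP140) is a corepressor that binds receptors in the presence of ligand. *NCOA3* is known for its amplification in breast cancer.

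Expression was measured as FPKM, a read density scaled to transcript length and library depth, and the transcripts of a gene were added up. Levels of genes with 1 transcript and with several are less comparable with each other, since many of the former lie outside their own Cufflinks interval, as described further on. Depth was worked out from the deposited coverage with reads of 50 nt and came to about 35151493 reads in EtOH and 36203604 in R5020 over the listed transcripts, and to between 479 and 9956 reads per member in EtOH and between 439 and 11847 in R5020. These are not the read totals of the libraries, and their order need not be that of the totals. Estimation had failed for 9 transcripts in EtOH and 13 in R5020, none of them of a member. Of 7 luminal epithelial markers, *KRT8* and *KRT18* were among the failures and are listed at 0 in EtOH (285 and 174 FPKM in R5020), and the other 5 lay between 17.2 and 608 FPKM in EtOH and between 10.9 and 477 in R5020. Of the 3 leukocyte and 2 endothelial markers the highest was *CD68* at 0.604 and 0.547 FPKM, of the 3 fibroblast markers *COL1A1* at 5.12 and 3.31, with *COL1A2* listed at 0, and of the 3 basal or myoepithelial markers *ACTA2* at 1.93 and 1.35.

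All 9 members were expressed, and none changed 1.5-fold. Ordered by FPKM in EtOH they ran from *MED1* (12.8) through *NCOA3* (11.4), *CREBBP* (9.16), *EP300* (8.40), *NCOR1* (5.12), *NCOA2* (4.96), *NCOA1* (4.21) and *NRIP1* (2.87) to *PELP1* (1.36). In R5020 *NCOA3* (16.3) stood above *MED1* (13.3), *NCOA1* (5.85) stood above *NCOR1* (4.96) and *NCOA2* (4.36), and the places of the others were the same. With the midpoints of the Cufflinks intervals in place of FPKM, *MED1* (17.7) stood above *NCOA3* (16.4) and *NCOA2* (5.97) above *NCOA1* (5.85) in R5020. By the midpoints *EP300* (10.98 in EtOH and 10.95 in R5020) also stood above *CREBBP* (9.23 and 9.13) in both libraries. The same held for *NCOA2* (6.91 and 5.97) over *NCOR1* (5.13 and 4.97). All of these places thus depend on the value used. Without replicates it cannot be said which neighbours differ. The median member had 5.12 FPKM in EtOH and 5.85 in R5020, close to the medians of 5.09 and 5.32 over the 11018 retained genes, which reached 1 FPKM in EtOH or R5020.

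Changes are given as log2 ratios of R5020 to EtOH after 1 had been added to both FPKM values, which understates the change of low genes. At 1.5-fold on this scale 0 of the 9 members were higher and 0 lower, beside 7.67% of the retained genes that were higher and 4.14% that were lower. With so few members this count lies close to the background. The median log2 change of the members was 0.02, beside 0.01 over all retained genes. Of the 9, 5 were within 1.1-fold of their EtOH level, beside 40.1% of the retained genes. At a lower threshold on the same scale, 25% higher or 20% lower than EtOH, *NCOA1* and *NCOA3* were higher and no member was lower, beside 15.5% and 12.6% of the retained genes.

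**Figure D1:**
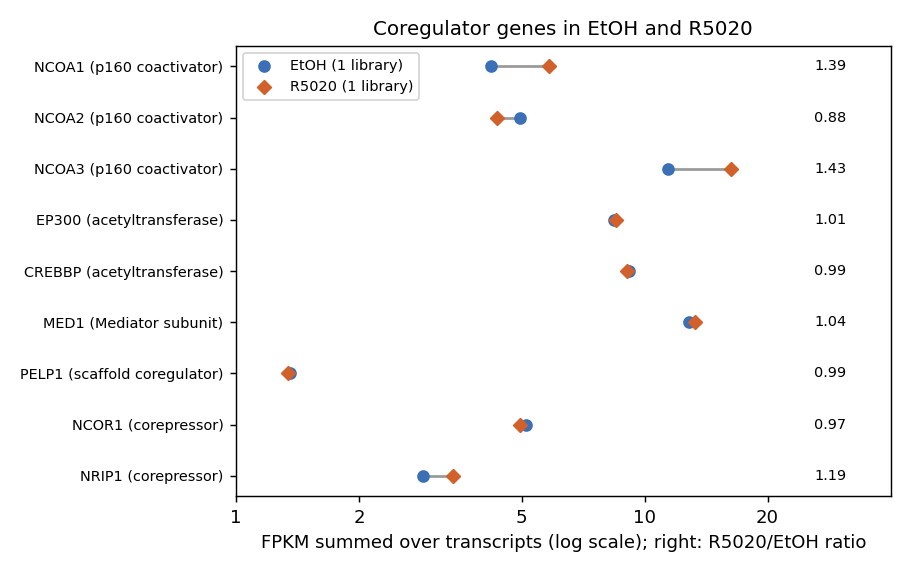
FPKM of each gene, summed over its transcripts, in the EtOH library (circles) and the R5020 library (diamonds), on a log axis, with the ratio of R5020 to EtOH at the right. The ratios lie between 0.88 for *NCOA2* and 1.43 for *NCOA3*, and the symbols of *EP300*, *CREBBP*, *MED1*, *PELP1* and *NCOR1* nearly coincide.

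The p160 coactivators differed from each other in sign. *NCOA3* stood at 11.4 FPKM in EtOH and 16.3 in R5020, a ratio of 1.43 and a log2 change of 0.48, and 9.70% of the retained genes had a larger log2 change. *NCOA1* had 4.21 FPKM in EtOH and 5.85 in R5020, a ratio of 1.39 and a log2 change of 0.39, with 12.4% of the retained genes above it. *NCOA2* went the other way, with 4.96 FPKM in EtOH and 4.36 in R5020, a ratio of 0.88 and a log2 change of −0.15. *NCOA3* was the most abundant p160 gene in both libraries, also with the interval midpoints. By FPKM *NCOA2* was above *NCOA1* in EtOH and below it in R5020, and by the midpoints it was above in both. Summed over the 3 genes, p160 mRNA stood at 20.6 FPKM in EtOH and 26.5 in R5020, a ratio of 1.29.

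The transcript values showed that *NCOA3* and *NCOA1* each held variants with opposite signs, although for *NCOA3* the intervals of the variant below 0 overlapped between the libraries. *NCOA3* has 4 RefSeq transcripts with 1 shared start, of which NM_001174088 is listed at 0 in both libraries. NM_006534 stood at 4.24 FPKM in EtOH and 7.25 in R5020 (log2 change 0.65), and NM_001174087 had 2.83 and 5.20 (0.70), so that both were more than 1.5-fold higher. NM_181659 had 4.32 in EtOH and 3.87 in R5020 (−0.13), and its share of the gene's FPKM was 37.9% in EtOH and 23.7% in R5020. In EtOH NM_181659 was thus highest only by a narrow margin over NM_006534, with overlapping intervals (4.03 to 4.61 and 3.97 to 4.53). In R5020 NM_181659 was the lowest of the expressed variants. The 3 expressed variants differ by at most 12 nt in length, from 7984 to 7996 nt, and how much sequence tells them apart was not tested.

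*NCOA1* has 3 transcripts, again with 1 shared start. NM_003743 had 1.73 FPKM in EtOH and 2.67 in R5020 (log2 change 0.43), and NM_147223 had 1.46 and 2.44 (0.49). Without the pseudocount their log2 ratios were 0.63 and 0.75, both past 1.5-fold. NM_147233 had 1.03 in EtOH and 0.738 in R5020 (−0.22) and went from 24.4% to 12.6% of the gene's FPKM. *NCOA2* is represented by NM_006540 alone.

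Over all members, 14 of the 17 transcripts reached 1 FPKM in EtOH or R5020, and the other 3 (1 each of *NCOA3*, *CREBBP* and *NCOR1*) are listed at 0 in both. Of the 14, 2 were at least 1.5-fold higher and 0 were lower, beside 11.3% and 8.34% of the 13625 retained transcripts. The *NCOA3* pattern is common in these files, since 22.7% of the 2264 genes with at least 2 retained transcripts had 1 transcript at least 1.5-fold higher and another below its EtOH value. The intervals that Cufflinks gives for EtOH and R5020 were apart for 7 of the 14 member transcripts, 5 higher and 2 lower, beside 48.1% of all retained transcripts with a status of OK. These intervals describe 1 library each and not the spread between cultures.

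The intervals also showed a limit of the deposited values. For the 5 members with a single transcript (*NCOA2*, *EP300*, *MED1*, *PELP1* and *NRIP1*) the FPKM lies below its own interval in both libraries. *MED1*, for example, has 12.8 FPKM in EtOH and an interval from 17.0 to 18.1. Over transcripts with a status of OK and at least 1 FPKM in the library in question, 67.2% of those of single-transcript genes lie outside their interval in EtOH. For genes with several transcripts the share is 6.22%. In R5020 the shares are 67.3% and 6.25%. With the midpoint of the interval in place of the FPKM, the log2 change of these 5 was −0.18 for *NCOA2*, −0.0043 for *EP300*, 0.01 for *MED1*, −0.07 for *PELP1* and 0.18 for *NRIP1*, so that *EP300* changed sign. None of the 9 was past 1.5-fold with the midpoints.

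**Figure D2:**
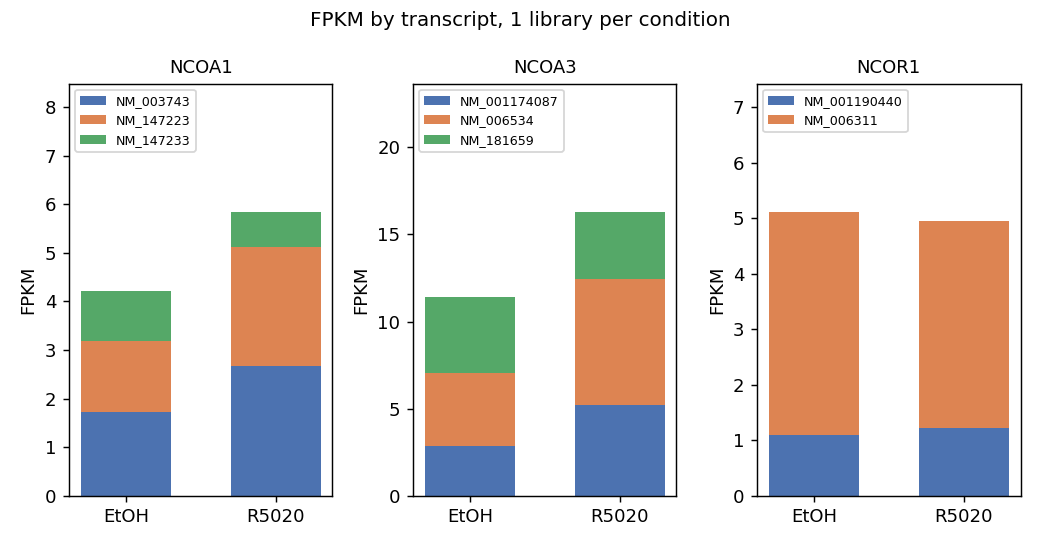
Stacked FPKM of the retained transcripts of *NCOA1*, *NCOA3* and *NCOR1* in the EtOH and R5020 libraries, with a scale of its own for each gene. In *NCOA1* and *NCOA3* 2 variants are taller and 1 is shorter in R5020, and the *NCOR1* bars are nearly equal.

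PR binding sites, called by MACS against input DNA, were assigned to a member when they lay in or within 50 kb of any of its transcripts. The score of a site is the −log10 of its p-value times 10, and the lowest score deposited is 50. *NCOA3* (chr20:46130601-46285621 in hg19) had 4 sites. The site at chr20:46130417-46131022 spans the transcription start, its midpoint 0.119 kb inside the gene, and its score of 102.59 was the highest at any member, above 85.1% of all 11181 sites. The site at chr20:46275627-46276015 has its midpoint in an exon 145 kb from the start and a score of 67.19. The other 2, with scores of 64.65 and 53.98, lie 10.6 and 21.8 kb beyond the 3′ end in introns of *SULF2*. *NCOA1* (chr2:24807346-24993570) had no site within 50 kb, and its nearest site was 213 kb away. *NCOA2* had 1 site with a score of 66.61, 42.2 kb beyond its 3′ end, whose midpoint is in an exon of *PRDM14*. Of the p160 genes with a positive log2 change, *NCOA3* thus had a site at its promoter and *NCOA1* had none within 50 kb.

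The 2 sites inside *NCOA3* are shown because they are the binding events closest to the member with the largest change. The sequences are of the plus strand of hg19, and capitals mark TGTTCT or its complement AGAACA, a single arm (half-site) of the steroid receptor element. The first is the part of the promoter site upstream of the transcription start (chr20:46130417-46130600), which holds no half-site, and the second is from chr20:46275690-46275889, which holds 2 in the same direction.
NCOA3 promoter site: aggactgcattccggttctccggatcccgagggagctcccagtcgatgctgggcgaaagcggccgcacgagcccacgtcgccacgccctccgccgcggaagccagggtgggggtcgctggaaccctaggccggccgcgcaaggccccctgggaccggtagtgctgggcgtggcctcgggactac
NCOA3 exon site: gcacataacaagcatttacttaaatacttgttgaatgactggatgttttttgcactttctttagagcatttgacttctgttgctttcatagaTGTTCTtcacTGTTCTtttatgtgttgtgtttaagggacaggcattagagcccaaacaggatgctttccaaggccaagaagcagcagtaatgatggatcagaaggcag

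The acetyltransferases were at nearly the same level in both libraries. *EP300* had 8.40 FPKM in EtOH and 8.50 in R5020, a log2 change of 0.02. *CREBBP* had 9.16 in EtOH and 9.07 in R5020 (−0.01), all of it from NM_004380, while NM_001079846 is listed at 0. Their sum was 17.6 FPKM in both libraries, and 95.4% and 96.1% of the retained genes had a larger change in either direction than *EP300* and *CREBBP*.

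Both genes nevertheless had PR binding sites in their introns or exons. *EP300* (chr22:41488614-41576081) had 3 sites. Those at chr22:41487214-41487673 and chr22:41577690-41577961, with scores of 63.13 and 74.50, lie 0.94 kb before the 5′ end and 1.61 kb beyond the 3′ end. The site at chr22:41572974-41573312, with a score of 90.51, is in an exon. *CREBBP* (chr16:3775056-3930121) had 5 sites, the most of any member. Of these, chr16:3826082-3826822 (score 79.96) and chr16:3859082-3859588 (79.04) are in its introns, 104 and 70.8 kb from its start. The other 3, with scores from 52.57 to 82.81, lie 29.2 to 45.1 kb beyond its 3′ end over *TRAP1* and *DNASE1*.

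Parts of some sites at *EP300* and *CREBBP* are shown as examples of receptor-bound DNA at members with nearly the same level in both libraries, with capitals as before. The *CREBBP* site also holds TGTAATCC, a word described further on, outside the printed stretch. The stretches are chr22:41487344-41487543, chr22:41573062-41573261 and chr16:3826352-3826551, in this order. The exon site of *EP300* holds 1 half-site and the other stretches hold none.
EP300 upstream site: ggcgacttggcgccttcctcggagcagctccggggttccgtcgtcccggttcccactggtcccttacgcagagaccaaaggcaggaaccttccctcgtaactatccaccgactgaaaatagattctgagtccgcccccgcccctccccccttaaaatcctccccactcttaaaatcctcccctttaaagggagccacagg
EP300 exon site: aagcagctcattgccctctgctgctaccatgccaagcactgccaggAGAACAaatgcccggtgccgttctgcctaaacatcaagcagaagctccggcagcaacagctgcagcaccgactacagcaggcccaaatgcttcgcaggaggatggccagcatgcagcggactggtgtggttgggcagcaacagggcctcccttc
CREBBP intron site: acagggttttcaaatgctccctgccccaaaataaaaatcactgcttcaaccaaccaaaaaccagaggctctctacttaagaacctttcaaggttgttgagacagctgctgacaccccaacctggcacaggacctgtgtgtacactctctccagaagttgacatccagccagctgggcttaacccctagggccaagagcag

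*MED1* was the highest member in EtOH and *PELP1* the lowest in both libraries, and both differed little between them. *MED1* (chr17:37560538-37607527) had 12.8 FPKM in EtOH and 13.3 in R5020, a log2 change of 0.05. Its 1 site, with a score of 56.66, lay 42.1 kb beyond the 3′ end in an intron of *FBXL20*. *PELP1* (chr17:4574679-4607632) had 1.36 FPKM in EtOH and 1.34 in R5020, a log2 change of −0.01, and was the shallowest member with 479 and 439 reads. Its 2 sites lay 9.45 and 12.1 kb before its 5′ end, with scores of 73.84 and 81.20, and both are within 1 kb of a start of the neighbouring gene *ARRB2*, an arrestin.

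The corepressors *NCOR1* and *NRIP1* differed in the size of the change. *NCOR1* (chr17:15933408-16118874) had 5.12 FPKM in EtOH and 4.96 in R5020, a log2 change of −0.04. Its main transcript NM_006311, from the upstream start, had 4.03 and 3.74 FPKM, and NM_001190440, from a separate start, had 1.09 and 1.22, so the share of the upstream start was 78.8% in EtOH and 75.5% in R5020. Its 2 sites lay 21.8 and 33.3 kb before the 5′ end in introns of *PIGL*, with scores of 69.26 and 57.65. *NRIP1* (chr21:16333556-16437126) had 2.87 FPKM in EtOH and 3.41 in R5020, a ratio of 1.19 and a log2 change of 0.19, with 25.1% of the retained genes above it. *NRIP1* was the member farthest from PR binding, with its nearest site 578 kb away.

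In total 7 of the 9 members (77.8%) had a PR binding site within 50 kb, beside 52.7% of the retained genes and 45.6% of all gene symbols. The members are long genes, with a median extent of 155 kb against 26.8 kb for the retained genes, and the part of gene length in this share was not tested. Per length, the members and their flanks held 18 sites in 2.14 Mb, or 8.39 sites per Mb, and the retained genes and their flanks 6.70 per Mb. Of the 18 sites, 5 were inside *NCOA3*, *EP300* or *CREBBP*, 5 were upstream and 8 were downstream of a member. By number of sites, the ratios of R5020 to EtOH were 0.99 for *CREBBP* (5 sites), 1.43 for *NCOA3* (4) and 1.01 for *EP300* (3). They were 0.99 for *PELP1* and 0.97 for *NCOR1* (2 each), and 0.88 for *NCOA2* and 1.04 for *MED1* (1 each). *NCOA1* and *NRIP1*, with ratios of 1.39 and 1.19, had no site. Among all retained genes, 8.94% of those with a site and 6.25% of those without were at least 1.5-fold higher, and 4.79% and 3.41% were lower.

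**Figure D3:**
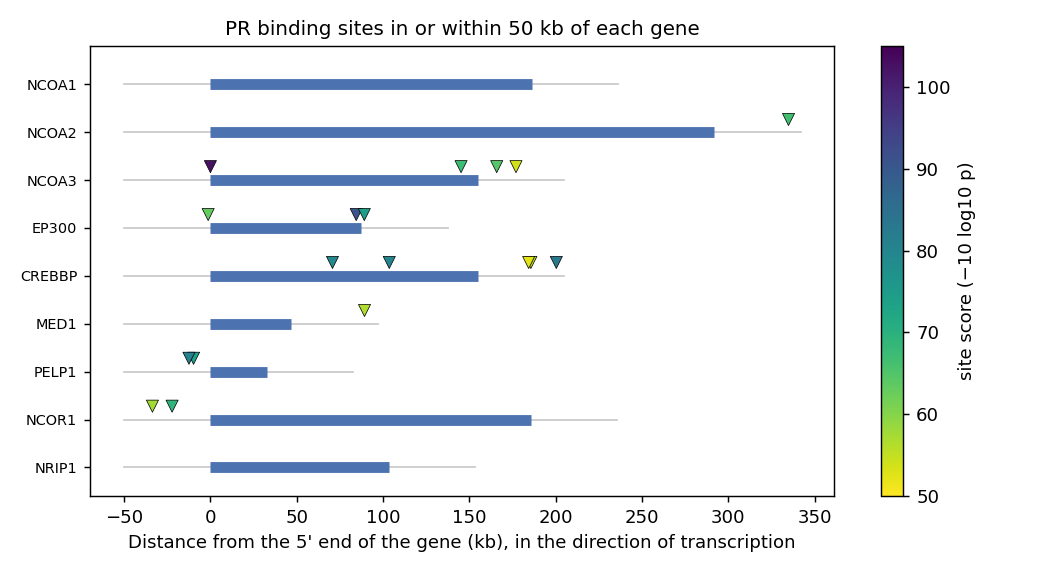
PR binding sites (triangles, coloured by score) in or within 50 kb of each gene, placed by the distance of their midpoint from the 5′ end of the gene in kb, with the gene as a thick bar and its flanks as a thin line. The darkest triangle, with a score of 102.59, sits at the start of *NCOA3*, and *NCOA1* and *NRIP1* have no triangle.

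The sites at the members were of modest score. Their median was 68.2, from 52.57 to 102.59, beside a median of 74.5 and a highest score of 1965 over all sites, and 11 of the 18 were below the median of all sites. By midpoint 3 were within 1 kb of a start of a protein-coding gene, 4 in another exon, 9 in an intron and 2 intergenic. Among the 7463 sites within 50 kb of any retained gene, 30.9% were at such a start, 8.32% in an exon, 37.5% in an intron and 23.3% intergenic.

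Searched on both strands, none of the 18 sites held ACANNNTGT, the core of the steroid receptor element, or its longer form with a G and a C at the outer positions, which contains it, the forkhead motif TGTTTAC or the palindromic oestrogen response element. Over the 11178 sites with sequence these were held by 11.6%, 2.40%, 4.07% and 0.0895%, and over windows of the same length 5 kb away by 11.2%, 0.805%, 5.18% and 0.121%. The share of sites with ACANNNTGT was 9.51% below a score of 75, where 12 of the 18 lie, 16.4% from 100 to 200 and 41.0% at 200 or more. The half-site TGTTCT, searched after the sequences had been seen, was held by 2 of the 18, by 25.2% of all sites and by 27.2% of the windows. These letters were searched exactly, and sites that differ from them were not counted. TGTAATCC, a word of the common Alu repeat that was likewise added afterwards, was held by 6 of the 18, namely 3 at *CREBBP* and 1 each at *MED1*, *PELP1* and *NCOR1*, beside 9.35% of all sites and 16.4% of the windows.

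The sites at the members lay near 8 other retained genes, which were *ARRB2*, *CXCL16*, *MED11*, *DNASE1*, *TRAP1*, *FBXL20*, *L3MBTL2* and *PIGL*. None of the 8 changed 1.5-fold, beside 11.8% of all retained genes that did so in either direction. With so few neighbours this count lies close to the background. The largest difference was that of *MED11*, a Mediator subunit beside *PELP1*, with 3.62 FPKM in EtOH and 2.56 in R5020 (log2 change −0.38). *TRAP1*, a mitochondrial chaperone that overlaps sites assigned to *CREBBP*, had 15.4 and 15.9 FPKM (0.04).

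The wider coregulator machinery was described with 10 lists of 82 genes that include the 9. All 82 were found and 77 were retained, of which 5 were at least 1.5-fold higher and 1 lower (6.49% and 1.30%), beside the 7.67% and 4.14% of all retained genes. All 6 were outside the 9 members. The median log2 change of the 77 was −0.01. Without the pseudocount 7 were higher and 3 lower. *PPARGC1B* was among these 7, at 0.505 FPKM in EtOH and 1.11 in R5020, close to the minimum of 1 FPKM.

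The higher genes came from several kinds of coregulator. *LCOR*, a ligand-dependent corepressor that, like *NRIP1*, binds receptors in the presence of hormone, had the largest change, with 4.90 FPKM in EtOH and 15.5 in R5020 (log2 change 1.48), and 3 PR binding sites within 50 kb. *NCOA5* had 11.4 and 19.2 FPKM (0.70) and 5 sites. *PPRC1*, of the PGC-1 family of coactivators, had 5.43 and 9.12 (0.65), *KAT2B* (PCAF), an acetyltransferase that binds p300 and the p160 proteins, had 2.58 and 4.58 (0.64), and *MED27* had 2.65 and 4.61 (0.62). *KAT2B* had no site within 50 kb, *PPRC1* had 1 and *MED27* had 3.

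The lower gene was *PNRC1*, a small proline-rich coactivator, which had 12.9 FPKM in EtOH and 5.49 in R5020 (log2 change −1.10) and no site within 50 kb.

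Of the partners of the members few were past 1.5-fold, beside 7.67% of all retained genes that were higher and 4.14% that were lower. With lists this small, a count of few or none lies close to these shares. *NCOR1* and 4 genes of its complex were all retained and lay between −0.07 and −0.03 in log2 change, among them *HDAC3* with 12.1 FPKM in EtOH and 11.5 in R5020. Of 33 Mediator genes 32 were retained, 1 was higher and none was lower, with a median of 0.00 and a range from −0.43 to 0.62. Without the pseudocount 2 were higher (*MED17* at 6.06 and 9.45 FPKM beside *MED27*) and 1 was lower (*MED31* at 2.14 and 1.34). Of the 5 genes of the PELP1 complex 4 were retained and none changed 1.5-fold with the pseudocount, while *WDR18* (4.42 and 2.70 FPKM) was past 1.5-fold lower without it, and *SENP3* is listed at 0 in both libraries. None of the 3 arginine methyltransferases, which are recruited by p160 proteins, changed 1.5-fold, with values from −0.19 to 0.19. Of the 68 retained list genes other than the 9, 32 (47.1%) had a PR binding site within 50 kb, beside 52.7% of all retained genes.

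**Figure D4:**
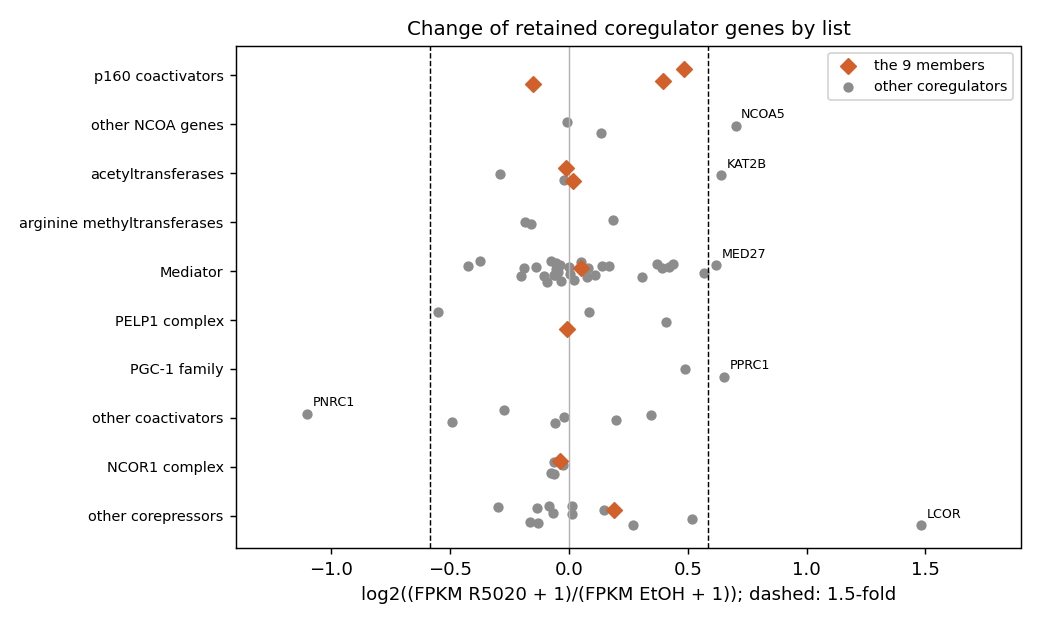
Log2 change of each retained coregulator gene by list, with the 9 members as diamonds, the others as grey points and 1.5-fold as dashed lines. The members lie between −0.15 and 0.48 inside the dashed lines, and the 6 labelled genes lie outside them, from *PNRC1* at −1.10 to *LCOR* at 1.48.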

How the data were processed

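The processed data of 2 RNA-seq libraries and 1 PR ChIP-seq library of T47D cells were analysed, and input DNA was not analysed. Groups were taken from the sample labels, and doses and times from the methods of the study. The authors trimmed 50-bp paired-end reads of poly(A)+ RNA, used TopHat on hg19, kept reads with 1 position and deposited, for each RefSeq transcript, the Cufflinks FPKM with its interval and the coverage. For PR ChIP-seq the authors aligned reads with Bowtie 1.1.2, called sites with MACS against input and deposited positions with a score. The deposited coverage (a signal) was used only to express depth. FPKM hold no read counts, so no count test was used.

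Transcripts were summed by symbol, genes with FPKM of at least 1 in either condition were retained, and 1.5-fold was the threshold. The study also used 1.5-fold, but with p-values and without the pseudocount of 1 added here. Sites within 50 kb were assigned by their nearest edge. Places came from GENCODE (release 44, lifted to GRCh37; protein-coding genes), and sequences from the same assembly, which is that of hg19. The 3 sites on unplaced contigs were left out of the motif search. Members and lists were chosen with earlier results of these data known. The text names all members, list genes past 1.5-fold, and retained genes near their sites. Other names (*HDAC3*, *SENP3*, *SULF2*, *PRDM14*, *MED17*, *MED31*, *WDR18*, *PPARGC1B* and markers) were added for context. Alternatives were a pseudocount of 0.1 or none, other FPKM filters and folds, and a rescaled FPKM. Others were the transcript highest in each library, the interval midpoint, other distances and a score minimum of 100. Some items, 1 list gene and 1 site sequence among them, are not reported here, and the list counts leave that gene out. Protein motifs of the members were not analysed here. The calls and the assignment of sites were tested on simulated data. Python 3.11.15, pandas 2.3.3, numpy 2.4.6 and matplotlib 3.10.9 were used.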

Additional observations from a re-analysis of the deposited data

How the results depend on the processing

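With 1 library per condition no replicate could be left out. How well the depth per transcript allows a split between near-identical variants was not tested. No paired analysis was possible because each condition has 1 library and the result comes from no test. The count of members past 1.5-fold, 0, became 1 (*NCOA3*) when the transcript highest in each library stood for the gene. This set NM_006534 in R5020 (7.25 FPKM) against a different transcript, NM_181659, in EtOH (4.32 FPKM). The count of members became 2 at the lower threshold of 25% and was 0 under the other alternatives. Their median log2 change of 0.02 ranged from −0.0043, with the midpoint of the FPKM interval, to 0.017. The count of member transcripts, 2, became 4 with a pseudocount of 0.1, without a pseudocount (chosen after seeing the data) and at the lower threshold, and 0 at 2-fold. With the highest transcript *NCOA3* went from place 1 to place 4 of the members in R5020, and with the interval midpoint (also chosen after seeing the data) to place 2. The members with a site, 7, became 3 for sites in the gene, 4 at 10 kb and 1 at a score of at least 100, and the 18 sites became 5, 8 and 1, and 40 at 250 kb. No share of all genes was set beside the counts at these other distances and this score. The listed coregulators past 1.5-fold, 6, became 10 with a pseudocount of 0.1 or none (the latter chosen after seeing the data) and 2 at 2-fold. Apart from distances, scores, folds and smaller pseudocounts, whose counts move by construction, the cause was not tested.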

Other observations

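With the distance widened to 250 kb, *NRIP1* was the only one of the 9 with no PR binding site, while *NCOA3* had 10 sites, *CREBBP* 9 and *PELP1* 6. No share of all genes at this distance was set beside these counts, so they cannot be called particular to the members.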
